A study of Danio rerio with 15 samples.

Results

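The genes described here encode the nuclear part of the mitochondrial oxidative phosphorylation system, complexes I to V, measured in sorted cells of the zebrafish trunk. A gene was a member when a probe set of the array carried that gene's symbol alone and the symbol began with nduf, sdha, sdhb, sdhc, sdhd, uqcr, cyc1, cycs, cox4 to cox8 or atp5. The rule used names only, no measured value, but the members were chosen with earlier results of these data known. It found 87 of the 8793 genes that the array names singly. A group of 31 encode complex I, 4 complex II, 8 complex III, 1 cytochrome c, 16 complex IV and 18 ATP synthase, and 9 encode assembly factors. The subunits encoded by the mitochondrial genome are not covered by these symbols. Of the members, 81 had 1 probe set and 6 had several, of which the brightest over all arrays stood for the gene.

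Oxidative phosphorylation passes electrons from NADH, through complex I, and from succinate, through complex II, to ubiquinone. They go on through complex III and the small carrier cytochrome c to complex IV, which reduces oxygen, and the proton gradient built on the way drives ATP synthase. Several nuclear subunits of complex IV and ATP synthase exist as paralogs, and in mammals some of these are used in particular tissues such as muscle, lung or testis.

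The study profiled RNA of fluorescence-sorted cells from embryos aged 27 hours after fertilization on the Affymetrix Zebrafish Genome Array. V1 interneurons, inhibitory cells of the ventral spinal cord that the labels also call CiA, came from Tg(pax2a:GFP) embryos after the pronephros region had been dissected away (6 arrays). All spinal neurons came from Tg(elavl3:EGFP) embryos, whose transgene marks postmitotic neurons (5 arrays). Trunk cells were sorted from the same body region of embryos for which no transgenic line is named (4 arrays), and embryos of every group shared one temperature schedule. The cell types named are nested, as V1 cells belong to the spinal neurons and spinal neurons to the trunk, but the sorted samples need not be. A GFP-positive gate takes every cell in which the transgene is on, and the pax2a transgene is not limited to V1 cells. The design text calls the samples of a group biological replicates. Levels are RMA values on the log2 scale, so a difference of 1 is a 2-fold difference, and since a level depends on the probe set, it does not show which of 2 genes is the more abundant. The precision is limited by the number of arrays.

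Marker genes bore out the neuron labels against trunk, but markers of several other cell types were higher in V1 than in all neurons. Of 12 measured genes of postmitotic neurons, 11 were higher in V1 and 12 in all neurons than in trunk, while 5 of the 12 were lower in V1 than in all neurons and none higher. Of 10 V1 genes 7 were higher in V1 than in all neurons and 1 lower. The 7 include pax2a, the gene of the transgene used to sort V1 cells, and foxd3, which is also counted among the neural crest genes below. All 23 measured skeletal muscle genes were lower in both neuron groups than in trunk. Their mean level was 6.96 to 7.93 on V1 arrays, 9.44 to 9.68 on all-neuron arrays 1 to 3, 7.51 and 7.77 on all-neuron arrays 4 and 5, and 11.22 to 11.47 on trunk arrays. V1 cells were closer to trunk than to all neurons in blood genes, whose mean level was 6.23 to 7.26 in V1, 4.44 to 4.66 in all neurons and 6.42 to 7.07 in trunk. All 8 vessel and all 6 neural crest genes were higher in V1 than in all neurons, as were 7 of 11 pronephros and 5 of 14 skin genes, while 6 of 12 notochord genes were lower. The control probe set AFFX-Dr-U43284-1_s_at, which the files tie to no gene, read 10.16 to 10.76 in all neurons and 4.98 to 5.59 in V1. It read 8.02 and 8.16 on trunk arrays 1 and 2 but 5.63 and 5.71 on trunk arrays 3 and 4, so the trunk group was split. The gap between the 3′ and 5′ control probe sets for gapdh, which widens when RNA is shortened, was 3.23 to 3.73 in V1, 3.15 to 3.48 in all neurons and 2.18 to 3.15 in trunk. In bulk RNA, fewer cells of a type and less RNA per cell cannot be told apart.

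Oxidative phosphorylation genes were lower in both neuron groups than in trunk, and V1 cells and all neurons differed in few of them. The first comparison asks how V1 cells differ from the trunk they were taken from. Of the 87 members, 71 were lower in V1 cells than in trunk and 1 was higher, at an adjusted p under 0.05 (limma's moderated test, Benjamini-Hochberg over all 15502 tested probe sets). Over all tested probe sets 18% were lower and 22.0% higher, and over those whose mean level reached the median of all values, as 82 of the 87 members did, 19.2% were lower and 36.7% higher. The median difference of the members was -0.60 on the log2 scale (1.52-fold lower), against -0.02 for all probe sets. Of the members, 58 had groups that did not overlap, 57 of them lower in V1, where 11.5% of all probe sets were lower and 15.3% higher without overlap.

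All neurons differed from trunk in nearly the same way, though the trunk arrays are shared by both comparisons. Here 74 members were lower and 2 higher, against 20.6% and 20.8% of all probe sets, or 26.6% and 32.9% of those at or above the median level. The median difference was -0.64, against -0.03 for all probe sets. In 71 members the groups did not overlap, 69 of them lower in all neurons, where 18.1% of all probe sets were lower and 18.7% higher without overlap. A total of 69 members were lower than trunk in both comparisons, and 83 had their highest mean in trunk. The 4 others were atp5mea and cox4i2, highest in V1, and cox6b1 and ndufa4b, highest in all neurons. The 9 members not called in any comparison were ndufa5, cox4i1l, cox5ab, cox8a, atp5l, atp5mj, ndufaf2, sdhaf2 and sdhaf4.

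V1 cells and all neurons were compared to see what sets this class apart from spinal neurons at large. Of the 87 members, 6 were higher in V1 and 3 lower, against 12.7% and 9.3% of all probe sets (18.5% and 11.5% at or above the median level), so the members' shares were below the background. The median difference was 0.04, against -0.01 for all probe sets. In 5 members the groups did not overlap, 3 of them higher in V1 (8.04% of all probe sets) and 2 lower (5.46%). The 6 higher were uqcrh, cox4i2, atp5if1a, atp5mea, ndufaf5 and ndufaf8, and the 3 lower were ndufc1, uqcrc2b and ndufa4b.

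**Figure D1:**
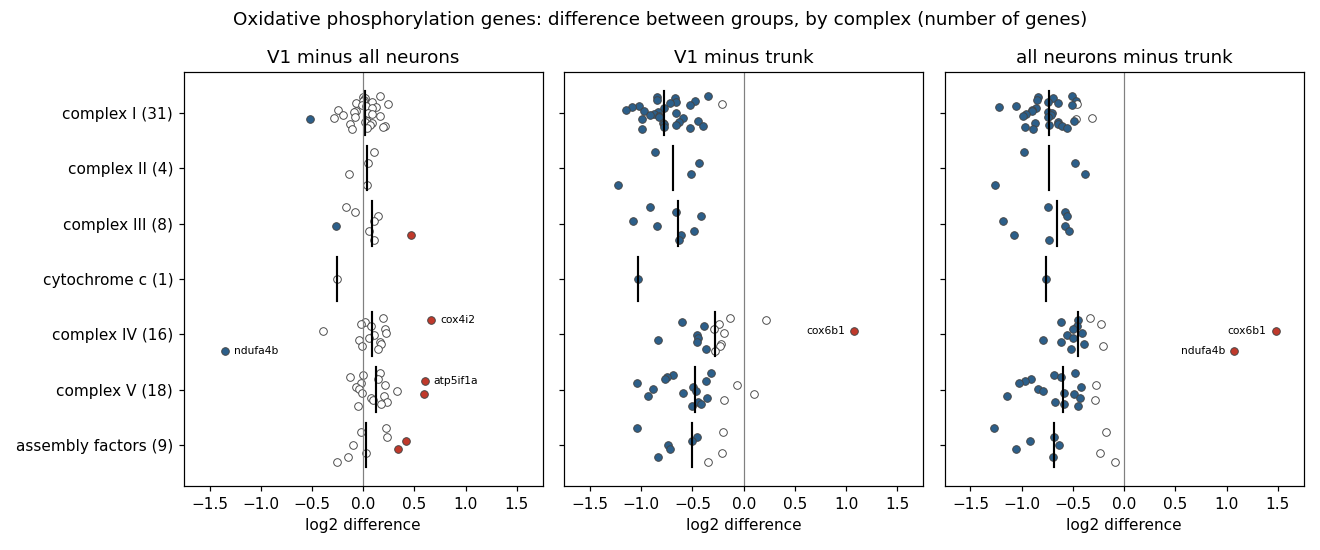
Log2 difference (x axis) of each of the 87 members in the 3 comparisons, by complex (y axis, with assembly factors and cytochrome c apart); red points were called higher, blue points lower and white points not called (limma, adjusted p under 0.05), and black bars are the medians of the complexes. Points for complexes I, II and III lie below 0 against trunk in both neuron groups. In complex IV 14 points lie below 0 and 2 above in each of these comparisons. The points of V1 minus all neurons centre on 0.

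The levels over arrays show the same order. The mean level of the 87 members was 8.25 to 8.72 on V1 arrays, 8.31 to 8.55 on all-neuron arrays and 8.95 to 9.21 on trunk arrays. The neuron groups overlapped fully, and no neuron array reached the lowest trunk array. V1 arrays 4 and 5 were the lowest of their group, at 8.25 and 8.29. Skeletal muscle genes moved in the same direction as the members between trunk and neurons. Within the all-neuron group, arrays 4 and 5 had far lower muscle levels than arrays 1 to 3. With only arrays 4 and 5 as all neurons, and the same trunk arrays, the members' median against trunk was -0.58, and 51 were lower and 2 higher. The gapdh gap was narrowest on trunk arrays 1 and 2 (2.59 and 2.18), and without these the median was -0.52 for V1 and -0.55 for all neurons, with 47 and 56 members lower. Without trunk arrays 3 and 4 the medians were -0.66 and -0.72, with 68 and 75 members lower. The part of muscle and of RNA integrity in the trunk difference was not tested.

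**Figure D2:**
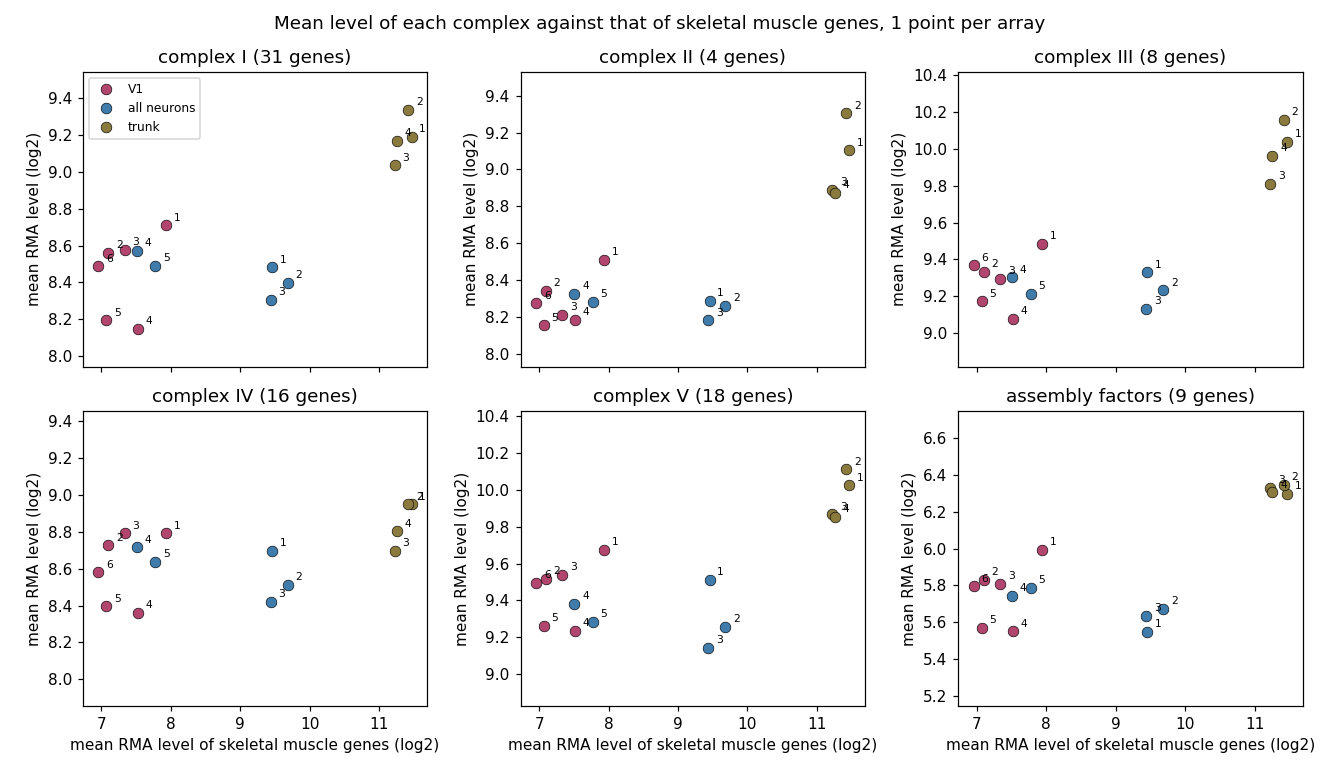
Mean RMA log2 level of the members of each complex (y axis) against that of the 23 skeletal muscle genes (x axis); each point is 1 array, numbered within its group. The 4 trunk arrays are highest in all panels except complex IV, where they overlap with neuron arrays, while muscle genes separate all-neuron arrays 1 to 3 (9.44 to 9.68) from arrays 4 and 5 (7.51 and 7.77).

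The size of the difference depended on how arrays were scaled, since ribosomal protein genes differed between groups. The mean level of 70 cytosolic ribosomal protein genes was 11.52 to 12.13 in V1, 11.19 to 11.57 in all neurons and 11.68 to 12.02 in trunk. With these means set equal, the median difference of all probe sets was -0.58 between V1 and all neurons, -0.11 between V1 and trunk and 0.45 between all neurons and trunk. The members' medians became -0.52, -0.69 and -0.16. Relative to all probe sets the members stood at 0.06, -0.58 and -0.61 with and without this scaling. That had to be so, since the scaling moves every probe set of an array by the same amount, and it is no check of the difference.

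Complex I, the entry point for NADH, was lower in both neuron groups in nearly all of its measured subunits. Of 31 subunits, 30 were lower in V1 than in trunk (median -0.77) and 28 in all neurons (median -0.73), and none was higher in either. The exception in both was ndufa5 (-0.22 and -0.46), and ndufb9 and ndufc1 also missed the threshold in all neurons (-0.31 and -0.47). All 5 core subunits measured, which carry the flavin and iron-sulphur clusters, were lower in both groups. Their differences between V1 and trunk were -0.63 for ndufs1, -0.39 for ndufs7, -0.77 for ndufs8a, -0.52 for ndufv1 and -0.99 for ndufv2. A dimmer probe set of ndufv2 gave -0.85.

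The largest differences of complex I were in accessory subunits. For ndufa9a, which sits near the ubiquinone site, the trunk levels were 9.73, 10.13, 9.52 and 9.83, and the all-neuron levels were 8.77, 8.58, 8.60, 8.49 and 8.46. V1 levels ran from 8.44 to 8.96 with a median of 8.74. Every neuron array lay below every trunk array, with differences of -1.09 ± 0.12 (SE) for V1 (limma adjusted p = 2.79e-06) and -1.22 ± 0.12 for all neurons (limma adjusted p = 1.15e-06). The subunit ndufa8 was 2.03-fold lower in V1 and 2.08-fold lower in all neurons. The acyl carrier protein ndufab1b was 2.21-fold lower in V1 and 1.87-fold lower in all neurons, and its paralog ndufab1a 1.71-fold and 1.82-fold. The probe set used for ndufab1a is of a type whose probes can also match other transcripts, and its 2 other probe sets gave larger differences, both of -1.08 in V1, and of -1.05 and -1.08 in all neurons.

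Between V1 and all neurons, 1 complex I subunit of 31 was called. This was ndufc1, of the membrane arm, at 7.34 to 8.09 in V1 (median 7.83) and 8.10, 8.26, 7.94, 8.64 and 8.58 in all neurons. Trunk levels were 8.96, 9.12, 8.57 and 8.45. The neuron groups overlapped on 1 all-neuron array, and the difference was -0.52 ± 0.17 (limma adjusted p = 0.0370). It missed the threshold in 8 of 29 alternatives, namely 6 fits without 1 array, the test against a difference of 0.5 (adjusted p = 1.00, the highest of all) and the threshold of 0.01.

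Complex II feeds electrons from succinate and is also an enzyme of the citric acid cycle. All 4 of its subunits were lower in both neuron groups, and none differed between V1 and all neurons at the threshold. The flavoprotein sdha fell by 0.87 between trunk and V1 and by 0.98 between trunk and all neurons. Among the membrane anchors, sdhdb had the largest difference of the complex. Its trunk levels were 7.39, 7.75, 7.15 and 6.88 and its all-neuron levels 6.08, 6.02, 5.93, 6.10 and 6.01. V1 arrays ran from 5.48 to 6.30 (median 6.15). Neither neuron group overlapped with trunk, and sdhdb was 2.34-fold lower in V1 (limma adjusted p = 1.92e-05) and 2.40-fold lower in all neurons (limma adjusted p = 1.72e-05). The iron-sulphur subunit sdhb and the other anchor sdhc differed less, by -0.44 and -0.52 in V1, and overlapped with trunk.

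All 8 measured subunits of complex III, which takes electrons from ubiquinol, were lower in both neuron groups, with medians of -0.64 and -0.66. The 2 that carry its electrons to cytochrome c, the haem protein cyc1 and the Rieske protein uqcrfs1, differed by -0.91 and -0.48 in V1. The core protein gene uqcrc2a had the largest difference in the complex, with trunk at 9.91, 9.94, 9.70 and 9.94 and all neurons at 8.80, 8.77, 8.59, 8.68 and 8.59. V1 arrays ran from 8.37 to 9.11 (median 8.82). Every neuron array was below every trunk array, and the differences were -1.08 ± 0.12 and -1.19 ± 0.13. A dimmer probe set of uqcrc2a gave -0.48 and -0.15, so the size depends on the probe set.

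In complex III, 1 subunit was higher and 1 lower in V1 than in all neurons. The hinge protein gene uqcrh ran from 9.31 to 10.12 in V1 (median 9.67) and was 9.60, 9.22, 9.11, 9.16 and 9.15 in all neurons and 10.54, 10.39, 10.08 and 10.28 in trunk. V1 arrays lay between the other groups and overlapped both, with a difference from all neurons of 0.47 ± 0.14 (limma adjusted p = 0.0284). This call was lost in 10 of 29 alternatives (adjusted p up to 1.00) and turned to -0.10 with equal ribosomal protein means. The other core protein gene, uqcrc2b, was lower in V1 by 0.27 (limma adjusted p = 0.0439), a call lost in 18 of 29 alternatives (adjusted p up to 1.00).

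Cytochrome c, encoded by cycsb, shuttles electrons between complexes III and IV and triggers apoptosis when it leaves the mitochondrion. Its trunk levels were 11.22, 11.02, 10.83 and 10.62, its all-neuron levels 10.35, 10.17, 10.07, 10.12 and 10.06, and its V1 levels 9.81 to 10.02 (median 9.88). The 3 groups did not overlap, with V1 lowest and trunk highest. V1 was 2.04-fold lower than trunk (limma adjusted p = 1.27e-06) and all neurons 1.70-fold lower (limma adjusted p = 2.71e-05). The step between the neuron groups, -0.26 ± 0.10, missed the threshold (limma adjusted p = 0.0680).

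Complex IV, cytochrome c oxidase, held the members that departed most from the common direction. Of its 16 genes, 7 were lower and 1 higher in V1 than in trunk (median -0.28), and 11 were lower and 2 higher in all neurons (median -0.45). The mean of complex I minus that of complex IV on each array was -0.22 to -0.08 in V1, -0.21 to -0.12 in all neurons and 0.24 to 0.39 in trunk. The neuron arrays thus lay apart from the trunk arrays, and they still did without cox6b1 and ndufa4b, at -0.55 to -0.36, -0.43 to -0.27 and -0.14 to -0.00. These means over members are a description, and no test was made of them. The largest decrease of complex IV was that of cox7a2l, by 0.84 in V1 and 0.79 in all neurons, and cox5aa was lower by 0.60 and 0.62. Among the general subunits, cox5ba, cox6c, cox7a2a and cox7b were lower in V1 by 0.38, 0.46, 0.45 and 0.45. In V1, cox6a1, cox7c and cox8a did not pass, at -0.29, -0.22 and -0.23.

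The gene cox6b1 was the only member called higher than trunk in both neuron groups. It encodes a subunit on the intermembrane face of the oxidase that bridges its dimer. Its levels were 7.32, 7.09, 7.50, 7.32 and 7.53 in all neurons and 6.76 to 7.33 in V1 (median 6.90). Trunk arrays 1 and 2 read 6.27 and 6.36, and trunk arrays 3 and 4 read 5.40 and 5.48. Both neuron groups lay above every trunk array, and the trunk group split into the same pairs of arrays as the control probe set above. The difference from trunk was 1.08 ± 0.18 in V1 (2.11-fold, limma adjusted p = 1.87e-04) and 1.48 ± 0.19 in all neurons (2.78-fold, limma adjusted p = 1.07e-05). Both calls held in all 29 alternatives, but the size in V1 depended on the trunk pair, at 1.52 without trunk arrays 1 and 2 and 0.64 without trunk arrays 3 and 4. In all neurons it was 1.91 and 1.04 without those pairs. V1 stood below all neurons by 0.40, which missed the threshold (limma adjusted p = 0.112).

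Its paralog cox6b2 did not share this pattern. In mammals COX6B2 is the testis form. The zebrafish gene read 10.81 to 11.26 in V1 (median 11.08), 10.93, 10.75, 10.66, 10.96 and 10.86 in all neurons, and 11.40, 11.25, 11.14 and 11.20 in trunk. V1 overlapped both other groups, and all neurons lay just below trunk (-0.41 ± 0.10, limma adjusted p = 0.00439). With equal ribosomal protein means that difference turned to 0.06.

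The gene ndufa4b was higher in all neurons than in either other group. NDUFA4 was first counted among the subunits of complex I and is now placed in complex IV. The all-neuron levels were 7.09, 7.09, 7.26, 7.67 and 7.57, and the trunk levels 6.28, 6.10, 5.92 and 6.75. V1 arrays 1 to 3 read 6.73, 6.24 and 7.01 and V1 arrays 4 to 6 read 5.34, 4.93 and 5.68, so that V1 was uneven, with the largest SD of any member in any group (0.81). No V1 or trunk array reached the lowest all-neuron array, while V1 and trunk overlapped. V1 was 2.55-fold lower than all neurons (-1.35 ± 0.31, limma adjusted p = 0.00515), a call lost in 1 of 29 alternatives, the test against a difference of 0.5 (adjusted p = 0.143, the highest of all). No alternative left out V1 arrays 1 to 3 or V1 arrays 4 to 6 together, so how the size depends on that split was not tested. All neurons were 2.10-fold higher than trunk (1.07 ± 0.34, limma adjusted p = 0.0195), a call lost in 6 of 29 alternatives (adjusted p up to 0.279), among them both that left out a pair of trunk arrays. V1 and trunk differed by -0.28 ± 0.33 (limma adjusted p = 0.537).

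Its paralog ndufa4a followed the other subunits. It read 10.77, 10.62, 10.48 and 10.57 in trunk, 10.30, 10.20, 9.92, 10.04 and 10.01 in all neurons and 9.90 to 10.61 in V1 (median 10.22). All neurons lay below trunk by 0.52 ± 0.13 (limma adjusted p = 0.00333), and V1, which overlapped trunk, by 0.37 ± 0.12 (limma adjusted p = 0.0238).

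The gene cox4i2 was higher in V1 than in all neurons. In mammals COX4I2 is the form of subunit 4 found in lung and raised by low oxygen. Its levels were 4.61, 4.97, 4.20, 4.07, 4.45 and 3.98 in V1, 3.66, 3.85, 3.67, 3.79 and 3.62 in all neurons, and 4.39, 4.28, 4.04 and 3.96 in trunk. All V1 and all trunk arrays lay above every all-neuron array, but the values are below 5.52, the median of all values, and whether they exceed background is not known. V1 was 1.58-fold above all neurons (0.66 ± 0.15, limma adjusted p = 0.00489), a call lost in 3 of 28 alternatives (adjusted p up to 1.00), namely with equal ribosomal protein means (0.10), without all-neuron arrays 1 to 3 and in the test against a difference of 0.5. All neurons were below trunk by 0.45 (limma adjusted p = 0.0422), lost or turned in 16 of 28 alternatives (adjusted p up to 1.00). Blood, vessel and neural crest genes were likewise lowest in all neurons (vessel genes had a mean level of 6.68 to 8.13 in V1 and 4.22 to 4.54 in all neurons, neural crest genes of 9.11 to 10.13 and 6.67 to 7.28), and their part was not tested. The related gene cox4i1l was also dim, at a mean of 4.47 over all arrays, and was not called in any comparison.

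**Figure D3:**
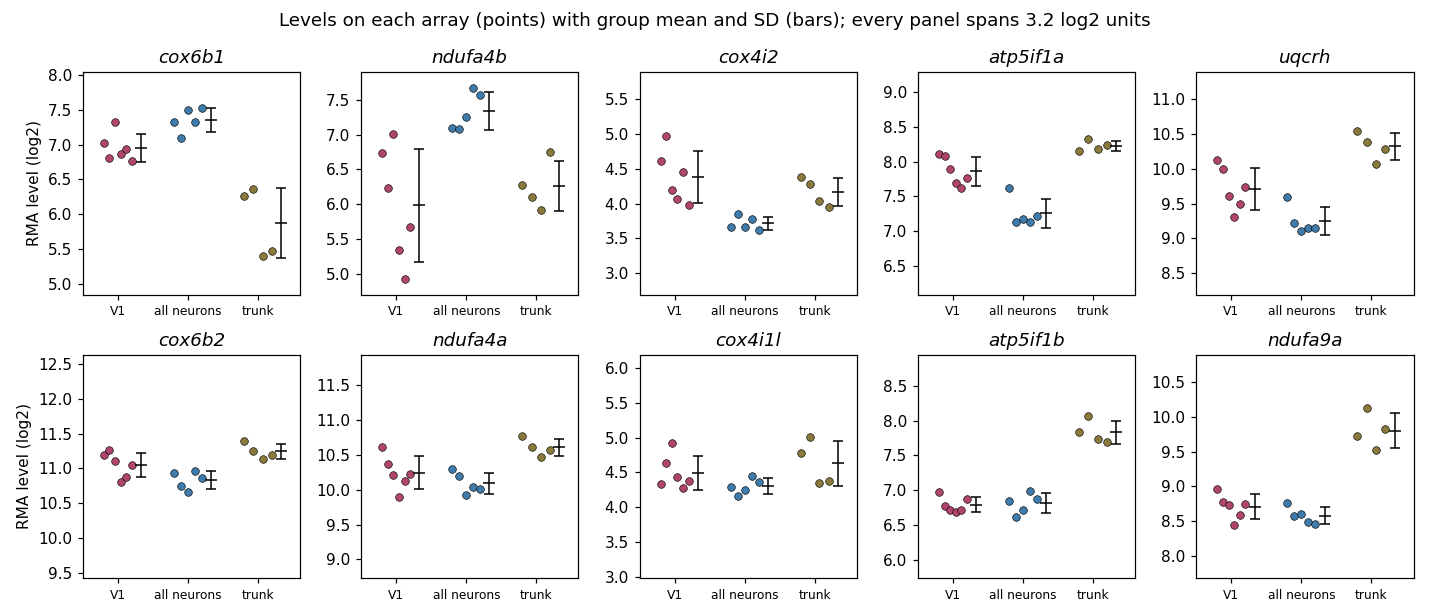
RMA log2 level of 10 members on each array, by group, with the mean and SD of the group as bars; each point is 1 array and every panel spans the same number of log2 units. In the upper panels cox6b1 is lowest on the 4 trunk arrays, ndufa4b highest on the 5 all-neuron arrays, and cox4i2 and atp5if1a lowest in all neurons; in the lower panels cox6b2, ndufa4a, atp5if1b and ndufa9a have their highest mean in trunk, and cox4i1l overlaps between groups.

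ATP synthase consists of a catalytic F1 head, a membrane part with a ring of c subunits, and a peripheral stalk. Of its 18 genes, 15 were lower in V1 than in trunk (median -0.48), 16 were lower in all neurons (median -0.60), and none was higher. All 4 genes of the F1 head and central stalk were lower in both groups. Their differences between V1 and trunk were -0.32 for atp5f1b, the catalytic beta subunit, -0.69 for atp5f1c, -0.75 for atp5f1d and -0.77 for atp5f1e. The 3 c-ring genes were lower as well, by 0.49 for atp5mc1, 0.89 for atp5mc3a and 0.46 for atp5mc3b. Of 9 other genes of the membrane part and peripheral stalk, 6 were lower in V1 and 7 in all neurons. Those not called in either were atp5l (-0.07 and -0.28) and atp5mj (-0.19 and -0.29).

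The inhibitory factors of ATP synthase, which bind the F1 head and block ATP hydrolysis when the matrix turns acid, split between the neuron groups. In zebrafish the gene atp5if1a is also known for a role in haem synthesis in red cells. V1 arrays 1 to 3 read 8.11, 8.08 and 7.90 and V1 arrays 4 to 6 read 7.69, 7.61 and 7.76 (median of V1 7.83). Levels were 7.62, 7.13, 7.18, 7.13 and 7.23 in all neurons, and 8.16, 8.33, 8.18 and 8.24 in trunk. How the differences depend on this V1 split was not tested. V1 and all neurons overlapped only through all-neuron array 1, and both lay below every trunk array. The difference between V1 and all neurons was 0.60 ± 0.11 (1.51-fold, limma adjusted p = 0.00104). It held in 27 of 29 alternatives, and was lost with equal ribosomal protein means, where it was 0.03, and in the test against a difference of 0.5 (adjusted p = 1.00, the highest of all). Against trunk, V1 was lower by 0.37 (limma adjusted p = 0.0209, up to 1.00 over alternatives, lost in 6 of 29) and all neurons by 0.97 (limma adjusted p = 1.02e-05). The mean levels of blood, vessel, neural crest, pronephros, skin and ribosomal protein genes were likewise lowest in all neurons, and their part was not tested.

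The paralog atp5if1b had no such step between the neuron groups. It read 6.69 to 6.97 in V1 (median 6.74), 6.84, 6.62, 6.72, 6.99 and 6.87 in all neurons, and 7.84, 8.06, 7.73 and 7.70 in trunk. The neuron groups overlapped and both lay below trunk, by 1.04 in V1 (limma adjusted p = 5.22e-07) and 1.02 in all neurons (limma adjusted p = 7.65e-07).

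The e subunit of ATP synthase, which helps the enzyme form dimers, is encoded by atp5mea and atp5meb. The level of atp5mea was 7.37 to 8.23 in V1 (median 7.76), 7.26, 7.25, 6.93, 7.32 and 7.03 in all neurons, and 7.33, 7.88, 7.74 and 7.67 in trunk. Every all-neuron array lay below every V1 and every trunk array, but only barely. The highest all-neuron level was 7.323, the lowest trunk level 7.327 and the lowest V1 level 7.372. V1 and trunk overlapped. All neurons were below trunk by 0.49 ± 0.17 (limma adjusted p = 0.0270), a call lost in 12 of 29 alternatives. V1 was 1.51-fold above all neurons (0.59 ± 0.15, limma adjusted p = 0.0101), lost in 4 of 29 alternatives (adjusted p up to 1.00). For atp5meb the levels were 8.31 to 9.35 in V1 (median 8.85), 8.90, 8.55, 8.29, 8.66 and 8.61 in all neurons, and 9.83, 9.82, 9.61 and 9.71 in trunk. The neuron groups overlapped, and all were below trunk, by 0.93 ± 0.17 in V1 (limma adjusted p = 4.50e-04) and 1.14 ± 0.18 in all neurons (limma adjusted p = 8.44e-05).

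Assembly factors build the complexes and do not remain in them. Of 9, 6 were lower than trunk in V1 and the same number in all neurons. The complex I factor ndufaf1 had the largest difference, 2.07-fold in V1 (limma adjusted p = 2.28e-04) and 2.41-fold in all neurons (limma adjusted p = 4.39e-05). A dimmer probe set of ndufaf1 gave 1.78-fold and 1.70-fold, so its size and rank depend on the probe set. A pair of other complex I factors were higher in V1 than in all neurons. The first, ndufaf5, read 5.94 to 6.92 in V1 and 5.88 to 6.10 in all neurons, a difference of 0.42 ± 0.14 (limma adjusted p = 0.0382). The second, ndufaf8, read 4.43 to 4.72 and 4.15 to 4.39, a difference of 0.34 ± 0.11 at a level below the median of all values (limma adjusted p = 0.0317). Both calls were unstable, lost or turned in 15 of 29 and 14 of 28 alternatives (adjusted p up to 1.00 for both). The complex II factors sdhaf2 and sdhaf4 were not called in any comparison, and sdhaf3, lower in both neuron groups, had a mean level of 3.24 over all arrays, below the median of all values.

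Paralogs of one subunit were then compared within each array, which removes any scaling of the whole array. The log2 difference between paralogs was compared between groups with an exact two-sided permutation test over arrays, for 12 pairs of 10 families in 3 comparisons. P-values were adjusted over these 36 tests, and the smallest unadjusted p that the arrays allow is 0.00433 for V1 against all neurons, 0.00952 for V1 against trunk and 0.0159 for all neurons against trunk. A shift says that the measured levels of the paralogs, each from its own probe set, changed by unequal amounts, not which is the more abundant. A total of 17 shifts passed, 6 for V1 against all neurons, 6 for V1 against trunk and 5 for all neurons against trunk, with adjusted exact p of 0.0343 to 0.0403.

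The largest shift was that of cox6b1 relative to cox6b2 between all neurons and trunk. This balance was 1.89 higher in all neurons than in trunk (3.71-fold), 1.28 higher in V1 than in trunk (2.42-fold), and 0.61 higher in all neurons than in V1. The 3 groups did not overlap in this measure. The balance of ndufa4a over ndufa4b was 1.50 higher in V1 than in all neurons (2.82-fold) and 1.59 lower in all neurons than in trunk (3.01-fold), while V1 and trunk differed by -0.09 (exact p adjusted 0.952). In this pair all neurons stood apart from trunk, but only barely from V1. The highest all-neuron balance was 3.209 and the lowest V1 balance 3.210.

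The inhibitor pair set V1 apart from both other groups. The balance of atp5if1a over atp5if1b was 0.62 higher in V1 than in all neurons and 0.68 higher than in trunk, and all neurons and trunk differed by 0.06 (exact p adjusted 0.768). The balance of atp5mea over atp5meb was highest in V1, by 0.39 over all neurons and 1.04 over trunk, and 0.65 higher in all neurons than in trunk. Both pairs thus had the a paralog higher relative to the b paralog on the V1 arrays. Neural crest genes (6 of 6 in both comparisons) were also higher in V1 than in all neurons and in trunk. So were 7 and 6 of 11 pronephros genes, and the part of such cells in these shifts was not tested.

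The remaining shifts were of 0.61 or less. The balance of cox5aa over cox5ab fell by 0.36 in V1 and by 0.40 in all neurons relative to trunk, and V1 and all neurons differed by 0.04. The balance of cox7a2a over cox7a2l, a related protein that joins complexes III and IV into supercomplexes, was 0.39 higher in V1 than in trunk. The balance of uqcrc2a over uqcrc2b was 0.38 higher in V1 than in all neurons and 0.61 lower in all neurons than in trunk, and that of ndufab1a over ndufab1b was 0.33 and 0.37 higher in V1 than in all neurons and in trunk. The last 2 pairs hold genes with several probe sets, and with the mean of a gene's probe sets 14 shifts passed in place of 17. The dimmer probe set of uqcrc2a differed by -0.33 between V1 and all neurons and by -0.15 between all neurons and trunk. For uqcrc2b the differences were -0.27 and -0.58, so neither shift kept its direction with that probe set. Between V1 and trunk the other probe sets of ndufab1a gave -1.08 and ndufab1b -1.15, a smaller shift in the same direction. None of the 9 shifts among the c-ring genes passed (adjusted exact p from 0.0541), and neither did those of cox4i1l and cox4i2.

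**Figure D4:**
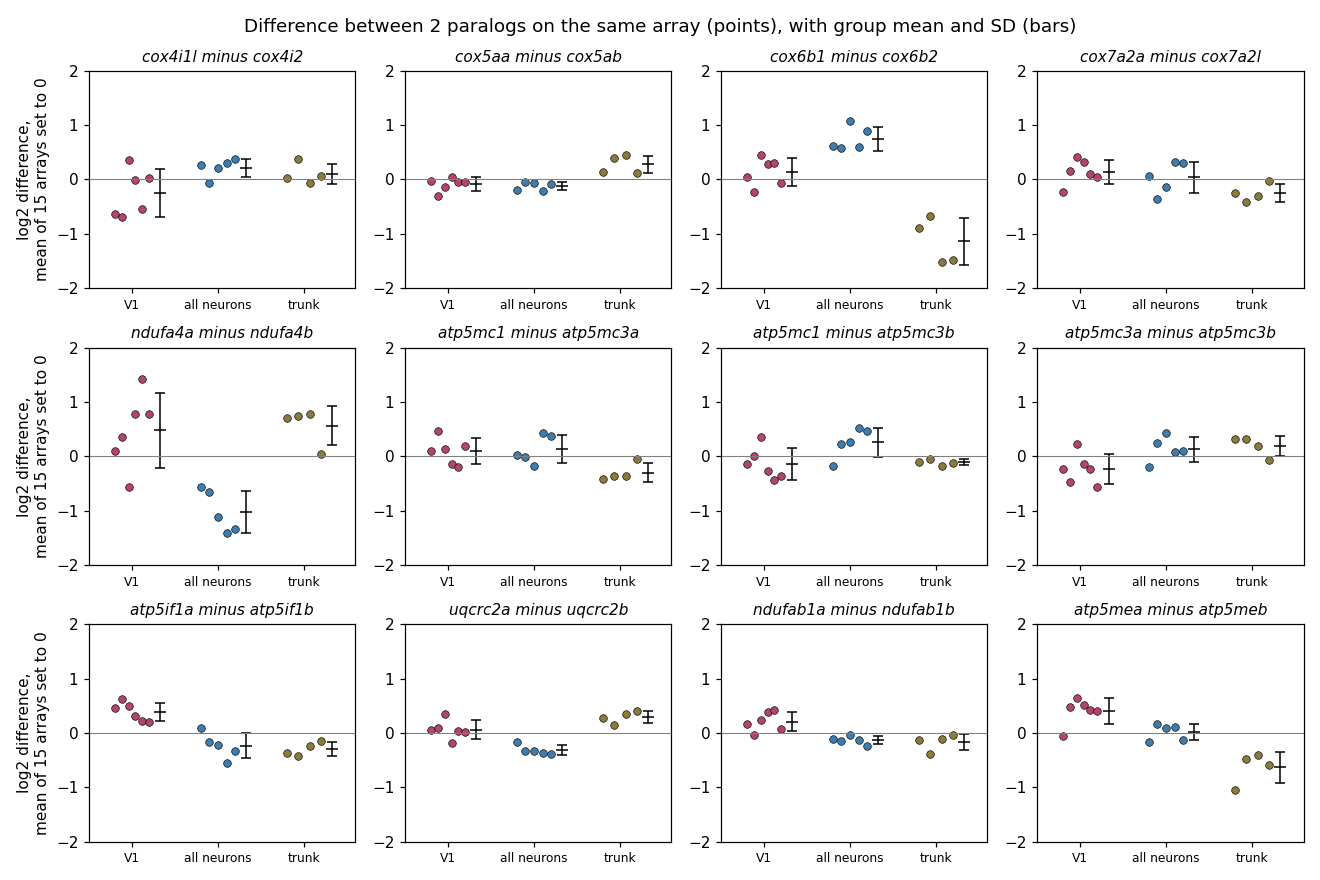
Log2 difference between paralogs on each array for the 12 pairs, with the mean over the 15 arrays set to 0; each point is 1 array, coloured by group. The 3 groups are apart for cox6b1 and cox6b2, and V1 arrays are apart for atp5if1a and atp5if1b. For ndufa4a and ndufa4b, all-neuron arrays are apart from trunk arrays and barely apart from V1 arrays.

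Other genes of mitochondrial energy supply, such as carriers, import proteins, assembly factors of complexes III to V and regulators, went the same way as the members. Of 55 measured of 79 listed, 36 were lower and 2 higher in V1 than in trunk (median -0.48), and 36 were lower and 3 higher in all neurons (median -0.56). Of all probe sets, 18% were lower and 22.0% higher in V1 than in trunk, and 20.6% were lower and 20.8% higher in all neurons. The ADP/ATP carrier slc25a4, which in mammals is the heart and muscle form, was lower by 5.05 in V1 and 3.29 in all neurons, and the copper chaperone of complex IV, cox17, by 2.42 and 2.28. Those higher than trunk were the mitochondrial creatine kinase ckmt1 (1.05 in V1 and 1.53 in all neurons), the outer membrane channel vdac1 (0.83 and 0.89) and, in all neurons, the inner membrane fusion protein opa1 (0.54). Between V1 and all neurons 8 of the 55 were higher and 1 lower, against 12.7% and 9.3% of all probe sets, so these counts were near or below the background. The uncoupling proteins ucp2 and ucp3 had the largest increases in V1 (1.91 and 1.62), and slc25a4 was the one lower (-1.76). Beside slc25a4, the skeletal muscle genes were lower in V1 than in all neurons in 17 of 23 cases, and their part was not tested.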

How the data were processed

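The deposited values are on the log2 scale. According to the submitters' processing notes, the authors used RMA in Affymetrix Expression Console. RNA went through 2 rounds of amplification, per the labels' protocols. The sources used here name no version or chip definition. A set of 115 control probe sets was left out, and 15502 were tested.

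One mean per group was estimated from the 15 arrays together (limma 3.58.1, lmFit and eBayes, two-sided, under R 4.3.3), and p-values were adjusted by Benjamini-Hochberg over all tested probe sets of a comparison, with 0.05 as the threshold. Standard errors follow ±. All 87 members matched a current RefSeq symbol, and 2 probe sets of several genes that include such a symbol were not used. Paralog tests were run with SciPy 1.17.1, and steps were tested on simulated data. Named are the genes cox4i2, cox6b1, ndufa4b and atp5if1a, called members past a log2 difference of 1, the largest call of each complex in each direction, paralogs of pairs that passed, members of small counts, and up to 2 genes a direction of other lists; further members are given as values of a group and were added after their values were seen. The members, lists and this rule were chosen with earlier results of these data known. Alternatives were other scalings, priors, filters, probe sets, thresholds and array sets.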

Additional observations from a re-analysis of the deposited data

Results flagged for a closer look

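In 4 of 78 groups of named members, 1 array stood far from the others by Dixon's test, where chance gives about 1 in 20. On all-neuron array 1, atp5if1a read 7.62, against 7.13 to 7.23 on the other arrays, and uqcrh read 9.60, against 9.11 to 9.22. On V1 array 3, sdhdb read 5.48, against 6.05 to 6.30, and on trunk array 3 uqcrc2a read 9.70, against 9.91 to 9.94.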

How the results depend on the processing

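Counts below are of members called higher and lower. Leaving out each array in turn gave 3 to 7 higher and 1 to 3 lower between V1 and all neurons, 1 higher (in every fit) and 63 to 74 lower between V1 and trunk, and 1 to 2 higher and 68 to 76 lower between all neurons and trunk. Between V1 and all neurons (6 higher, 3 lower) the higher count was 0 with equal ribosomal protein means and in a test against a difference of 0.5, and 2 without all-neuron arrays 1 to 3 and at a threshold of 0.01. The lower count was 5 in a fit of only the groups compared and without either pair of trunk arrays, 77 with equal ribosomal protein means, 6 with array weights, 0 against a difference of 0.5 and 1 at 0.01. Between V1 and trunk (71 lower) it was 18 against 0.5 and 47 without trunk arrays 1 and 2. Between all neurons and trunk (2 higher, 74 lower) the higher count was 1 against 0.5, without either pair of trunk arrays and at 0.01, and the lower was 23 with equal ribosomal protein means and 20 against 0.5. The cause was not tested, except that the test against 0.5, the threshold of 0.01 and fewer arrays ask more of each gene.

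Equal ribosomal protein means moved all probe sets, of which 495 were then higher and 11794 lower in V1 than in all neurons, against 1966 and 1442, and 8677 higher and 1246 lower in all neurons than in trunk, against 3219 and 3196. Under it the difference between V1 and all neurons turned to -0.36 for atp5meb, -0.55 for cox5aa, -0.35 for cox6b2, -0.51 for cox7a2a, -0.42 for ndufa4a, -0.54 for ndufa8, -0.44 for ndufa9a, -0.48 for ndufab1a, -0.35 for ndufaf1, -0.15 for ndufaf5, -0.23 for ndufaf8, -0.53 for sdhdb, -0.46 for uqcrc2a and -0.10 for uqcrh. Of these genes only ndufaf5, ndufaf8 and uqcrh were called between V1 and all neurons before this scaling. Small differences were among the others, such as 0.02 for cox5aa and 0.03 for ndufa8 and sdhdb. Between all neurons and trunk the difference turned to 0.029 for cox4i2 and 0.063 for cox6b2.

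The number of paralog shifts (17) was 0 without all-neuron arrays 1 to 3, without either pair of trunk arrays and without any 1 trunk array. Without 1 array of the other groups it ran from 8 to 23. Fewer arrays raise the smallest p that the exact test can give in the comparisons that use them. A comparison that kept all its arrays also lost its shifts, since p-values are adjusted over all 36 tests together. A limma moderated test of the same differences, added after the data were seen, gave 25. It gave 22 without all-neuron arrays 1 to 3, 19 without trunk arrays 1 and 2 and 23 without trunk arrays 3 and 4. Without 1 array it gave 18 to 25.

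Replicate numbers are shared between groups, but samples of one number did not deviate together in every pair (correlations of -0.13 to 0.36), so the numbers were not taken to pair them. The fit with the replicate number as a block gave 4 higher and 2 lower between V1 and all neurons, 1 and 62 between V1 and trunk, 2 and 70 between all neurons and trunk, and 18 paralog shifts by limma. Sensitivity to small differences is limited by the 4 trunk arrays, and whether the dim members exceed background is unknown.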
